A study of Bos grunniens with 12 samples.

Results

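The testis-specific serine kinases (TSSK) were followed in the testis of yaks of 1.5 years and of 5 years. Rows of the deposited expression table were taken whose gene symbol starts with TSSK, which gave 5 of 20953 rows under 4 symbols: TSSK6 (ENSBGRG00000001976), TSSK3 (ENSBGRG00000012978), TSSK4 (ENSBGRG00000017845) and TSSK1B on 2 identifiers (ENSBGRG00000019032 and ENSBGRG00000019056). No row of the table carries the symbol TSSK2. Levels are FPKM, a count of sequenced fragments scaled by transcript length and library size, in the input libraries of an m6A immunoprecipitation experiment, which hold fragmented poly(A) RNA before the antibody step and serve as RNA-seq. The 18M group has 3 libraries from 1.5-year-old yaks whose testes were removed by castration, and the 5Y group has 3 libraries from 5-year-old yaks whose testes were collected after slaughter, so by this record age and the way of collection cannot be told apart. All 6 animals were described as healthy and came from the same place. The tissue was whole testis, in which fewer cells of a type and less RNA per cell cannot be told apart.

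The groups are named here by the sample titles. The growth protocol of the record puts the 1.5-year-old yaks before sexual maturity, but the developmental stage field of every sample gives the opposite stage, with the 5Y samples as before maturity. Transcripts of condensing spermatids, cells formed after meiosis, were abundant in the libraries titled 18M, which goes against the growth protocol's stage for 1.5-year-old yaks. TNP1 was at 852 to 883 FPKM there, against 201 to 641 FPKM in the libraries titled 5Y. It was thus abundant in both groups, and its 5Y values likewise go against the stage field, which puts the 5Y samples before maturity. Which label is right was not settled here, and each direction below is between libraries as titled. Replicate 1 of the 5Y group was furthest from the 18M libraries. Across the genes tested, its Pearson correlation with them was 0.817 to 0.837, against 0.912 to 0.917 for 5Y replicate 3 and 0.942 to 0.947 for 5Y replicate 2. Replicate 2 thus correlated more with each 18M library than with 5Y replicate 1 (0.868) or 5Y replicate 3 (0.935). The correlation of 5Y replicates 1 and 3 was 0.923. Values with and without 5Y replicate 1 are therefore given, and for many results also those without 5Y replicate 2. The summed FPKM of a library was between 116187 and 139921. Sequencing depth is unknown from the table, so no counting error is given.

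TSSK proteins are a small family of serine/threonine kinases within the CAMK group, related to the AMP-activated protein kinase and the MARK kinases. They are known as kinases of the postmeiotic male germ cell, the haploid spermatid that condenses its chromatin and builds the acrosome and the tail. TSSK6 is needed for sperm chromatin condensation in the mouse, TSSK1 and TSSK2 act together in spermatids and phosphorylate the substrate TSKS, TSSK3 is found in spermatids and its activity is promoted by the kinase PDPK1, and TSSK4 has been linked to the sperm tail protein ODF2 and to CREB. TSSK6 is activated with the help of the cochaperone TSACC and of HSP90.

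The gene ontology terms of the table separated the 5 rows into 4 kinases and 1 row of another kind. TSSK6, TSSK3, TSSK4 and the TSSK1B row ENSBGRG00000019032 all carried protein serine/threonine kinase activity, ATP binding, protein phosphorylation and intracellular signal transduction. Sperm chromatin condensation was given to TSSK6 alone among them, sperm capacitation to TSSK3, spermatid development to TSSK1B, and positive regulation of CREB transcription factor activity to TSSK4. TSSK1B and TSSK4 shared acrosomal vesicle and motile cilium. The other TSSK1B row, ENSBGRG00000019056, had 4 terms, which were mRNA splicing via spliceosome, catalytic step 2 spliceosome, nervous system development and nucleus, and none of them names a kinase. In RefSeq's annotation of another yak assembly (Bosgru_T2T1.0), DGCR2, TSSK1B, TSSK2 and ESS2 follow each other on chromosome 17, with TSSK2 overlapping ESS2, which is known as a spliceosome-associated protein. Neither ESS2 nor TSSK2 has a row under its symbol in the deposited table. The row ENSBGRG00000019056 is therefore called the second TSSK1B row here and is kept apart from the 4 kinase rows, and whether ENSBGRG00000019032, called TSSK1B as in the table, stands for TSSK1B or for the related neighbour TSSK2 was not settled.

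TSSK6 was the most abundant of the 4 kinases in every library. In the 18M group it was at 152, 157 and 126 FPKM in replicates 1, 2 and 3, and in the 5Y group at 23.8, 74.6 and 70.2 FPKM. Each 5Y library lay below each 18M library, and replicate 1 of the 5Y group was the lowest of all. The mean was 145 ± 16.4 FPKM (SD, n = 3) in the 18M group and 56.2 ± 28.2 FPKM (SD, n = 3) in the 5Y group.

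TSSK1B (ENSBGRG00000019032), the row with the spermatid development term, came next. Its 18M libraries were at 72.1, 60.3 and 76.7 FPKM and its 5Y libraries at 19.6, 57.2 and 38.2 FPKM. The groups did not overlap, but replicate 2 of the 5Y group was close to replicate 2 of the 18M group. The means were 69.7 ± 8.48 FPKM and 38.3 ± 18.8 FPKM (SD, n = 3 each).

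TSSK3, annotated to sperm capacitation, was the steadiest of the 4 kinases in the 18M group. Its libraries there were at 44.7, 48.8 and 45.6 FPKM, a mean of 46.4 ± 2.15 FPKM (SD, n = 3). In the 5Y group they were at 7.37, 32.9 and 27.0 FPKM, a mean of 22.4 ± 13.4 FPKM (SD, n = 3). The 5Y group had the wider spread, with replicate 2 at 4.46 times replicate 1.

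TSSK4, the kinase with the CREB term, was the least abundant of the 4. It was at 30.2, 26.0 and 30.8 FPKM in the 18M libraries and at 6.00, 25.9 and 10.1 FPKM in the 5Y libraries. Replicate 2 of the 5Y group, at 25.92 FPKM, was all but level with the lowest 18M library at 26.01 FPKM, so the groups of TSSK4 were parted by less than their spread. The means were 29.0 ± 2.63 FPKM and 14.0 ± 10.5 FPKM (SD, n = 3 each).

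The second TSSK1B row did not share this pattern. It was at 3.626, 4.735 and 3.999 FPKM in the 18M libraries and at 4.37, 4.31 and 4.45 FPKM in the 5Y libraries. Its 5Y values lay inside the range of its 18M values and were closer to each other than those were. The symbol TSSK1B therefore stands on a row whose groups did not overlap and on a row whose groups did.

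**Figure D1:**
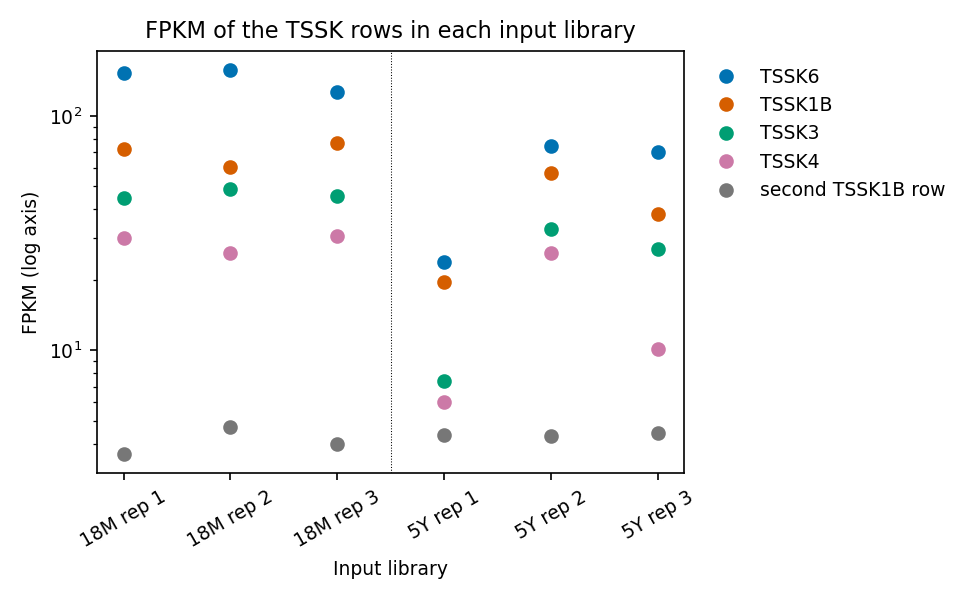
FPKM (log axis) of the 5 TSSK rows in each of the 6 input libraries, with 1 point per library. The 4 kinase rows keep the same order in every library and are lowest in 5Y replicate 1 (5Y rep 1), while the second TSSK1B row lies between 3.63 and 4.73 FPKM throughout.

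The order TSSK6, TSSK1B, TSSK3, TSSK4 held in 6 of 6 libraries. In the 18M group the ranges of neighbours in this order did not overlap, from 126 to 157 FPKM for TSSK6 down to 26.0 to 30.8 FPKM for TSSK4. In the 5Y group the ranges of neighbours overlapped, so there the order is seen within each library and not between group ranges. TSSK6 made up 45.2% to 53.7% of the summed FPKM of the 4 kinase rows in the 18M libraries and 39.1% to 48.2% in the 5Y libraries. The share of TSSK1B was 20.6% to 27.5% and 26.2% to 34.5%, that of TSSK3 was 14.96% to 16.71% and 13.0% to 18.6%, and that of TSSK4 was 8.91% to 11.0% and 6.97% to 13.6%. For TSSK3 and TSSK4 the 18M range lay inside the wider 5Y range. The sum of the 4 rows was between 279 and 299 FPKM in the 18M libraries and at 56.7, 191 and 146 FPKM in replicates 1, 2 and 3 of the 5Y group.

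The levels were high among rows annotated as serine/threonine kinases. Of 196 rows with the term protein serine/threonine kinase activity, TSSK6 ranked first by the 18M mean, TSSK1B 3rd, TSSK3 7th and TSSK4 14th. By the 5Y mean they ranked 3rd, 6th, 15th and 32nd. These are ranks within the annotation, which does not cover every kinase row and also holds rows whose symbols do not name a kinase. Among the latter, ARL6IP1 had a 5Y mean of 65.0 FPKM, above that of TSSK6. The PRKAA1 row ENSBGRG00000024490, with a 5Y mean of 71.2 FPKM above that of TSSK6, lacks the term. So does GRK4, at 54.5 to 59.9 FPKM in the 18M libraries, above TSSK3. TSSK6 was first in each of the 18M libraries and in replicates 2 and 3 of the 5Y group, and 9th in replicate 1 of the 5Y group. Among all 20953 rows of the table, TSSK6 ranked between 58 and 93 in the 18M libraries and at 860, 208 and 213 in replicates 1, 2 and 3 of the 5Y group.

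**Figure D2:**
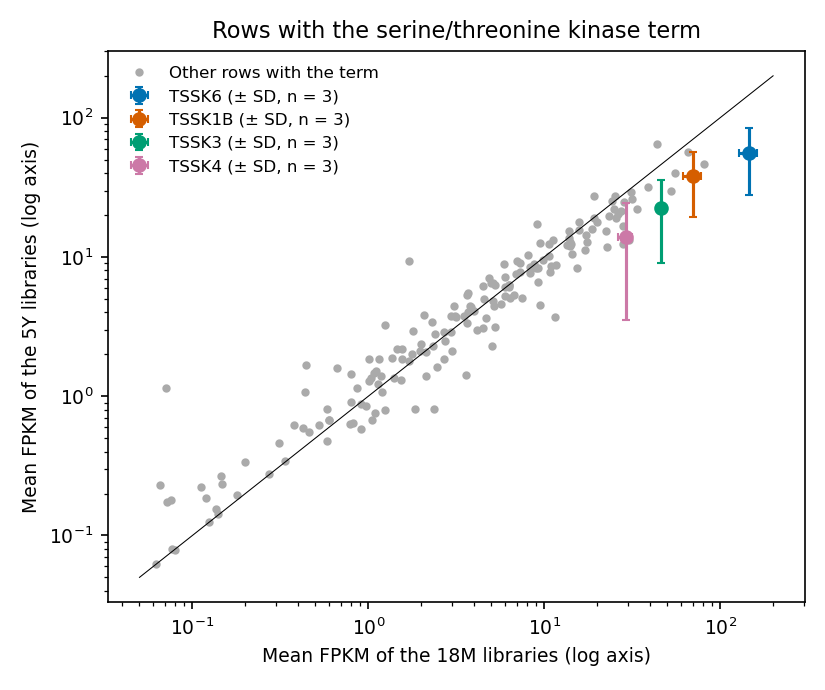
Mean FPKM of the 18M libraries against mean FPKM of the 5Y libraries (log axes) for rows with the serine/threonine kinase term, with the 4 TSSK kinases in colour (bars are SD, n = 3) and the line of equal means. All 4 lie below the line, and the 17 of 196 rows with a mean of at most 0.05 FPKM in a group are not drawn.

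The ages were compared with limma on log2(FPKM + 0.1), with positive differences higher in the 5Y group. Of 12437 genes tested, those with a mean of at least 0.5 FPKM over the 6 libraries, 25.1% reached an unadjusted p under 0.05, with 1356 genes (10.9%) lower and 1767 higher in the 5Y group. With median-of-ratios scaling the split was 1703 lower and 1416 higher. All 5 TSSK rows were tested, and the 4 kinase rows were among those lower under both scalings. No TSSK row reached an adjusted p under 0.05 in limma, and neither did all but 0.0322% of the genes tested. In TSSK6 the log2 difference was -1.53 (SE 0.43, adjusted p = 0.154 from limma), and 0.892% of all genes tested had a difference at or below it. The difference was -1.30 in TSSK4 (SE 0.48, adjusted p = 0.169 from limma) and -1.30 in TSSK3 (SE 0.52, adjusted p = 0.184). In TSSK1B it was -0.99 (SE 0.37, adjusted p = 0.172 from limma), with 6.42% of all genes tested at or below it. The second TSSK1B row had a difference of 0.09 (SE 0.15, adjusted p = 0.71 from limma). The median over all genes tested was 0.04.

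The groups of the 4 kinase rows did not overlap, with the 5Y group lower, as was so for 13.9% of all genes tested. The exact two-sided permutation test of a single row gave p = 0.1 for each of the 4, which is the smallest p that 3 libraries against 3 can give.

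Single libraries set the size of these differences. Without replicate 1 of the 5Y group the log2 difference was -0.99 in TSSK6, -0.63 in TSSK3, -0.83 in TSSK4 and -0.57 in TSSK1B, and the unadjusted p-value of TSSK4 was then 0.063 from limma. Without replicate 2 of the 5Y group the differences were -1.82, -1.71, -1.88 and -1.34 in the same order, and TSSK6, TSSK4 and TSSK1B had adjusted p-values of 0.04, 0.016 and 0.034, in a limma fit in which 19.3% of all genes were past the same threshold. In the fit that leaves out replicate 3 of the 5Y group, TSSK6 and TSSK3 remained under an unadjusted 0.05, while TSSK1B was at 0.059 and TSSK4 at 0.082 in limma. Leaving out replicate 1 or replicate 3 of the 18M group left TSSK6 as the only TSSK row under an unadjusted 0.05, and without replicate 2 of that group TSSK6 and TSSK1B were under it. TSSK6 was under an unadjusted 0.05 in all 6 of these fits.

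**Figure D3:**
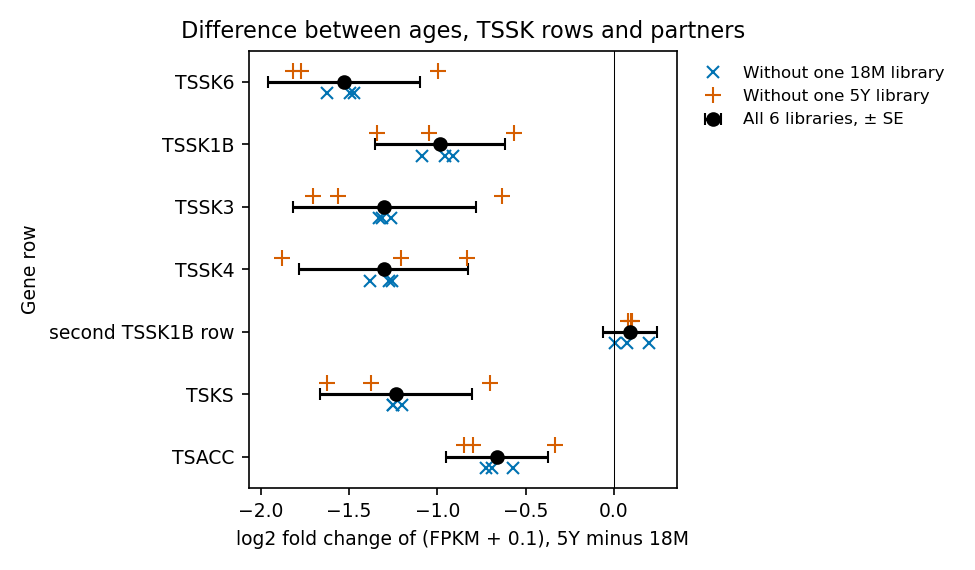
Difference between ages on the log2(FPKM + 0.1) scale, 5Y minus 18M, for the 5 TSSK rows, TSKS and TSACC. Black points are the fit with 6 libraries with its SE, and crosses and plus signs are the fits without 1 library. The 4 kinase rows lie below 0 in every fit, and the smallest differences are those without 5Y replicate 1.

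The members differed from each other in how far each 5Y library lay from the mean of the 18M libraries. On the log2 scale TSSK6 was at -2.60, -0.95 and -1.04 in replicates 1, 2 and 3, and TSSK3 at -2.64, -0.49 and -0.78. TSSK1B was at -1.82, -0.28 and -0.86, and TSSK4 at -2.25, -0.16 and -1.50. So replicates 2 and 3 were about level for TSSK6, while for TSSK4 replicate 3 was far below replicate 2. Over the 6 libraries TSSK1B and TSSK4 had a Pearson correlation of 0.977, TSSK6 and TSSK3 one of 0.976, and TSSK6 and TSSK4 one of 0.898. These are descriptions over 6 libraries that share the difference between the groups and the low values of 5Y replicate 1, and between 12.2% and 16.1% of all other genes tested had a correlation over 0.9 with a given kinase row.

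Spermatid markers were also lower in the 5Y libraries. Of the elongating spermatid list, 5 of 12 genes were in the table (TNP1, HMGB4, ODF1, GAPDHS and SPEM1), none of them at 0 in any library. Their summed FPKM was 1261 to 1320 in the 18M libraries and 282, 911 and 797 in replicates 1, 2 and 3 of the 5Y group. All 5 were lower in the 5Y group at an unadjusted p under 0.05, as were 10.9% of all genes tested, and the median log2 difference was -1.23. With quantile scaling 2 of the 5 were past that threshold. Without replicate 1 of the 5Y group all 5 were still past that threshold, with a median of -0.70, while leaving out 1 library of the 18M group left 1 or 2 of them. Of all genes tested, 8.51% were lower in the former fit and 4.88% to 7.22% in the latter ones. TNP1, the transition protein that replaces histones in condensing spermatids, was at 883, 852 and 879 FPKM in the 18M group and at 201, 641 and 550 FPKM in the 5Y group. The protamines PRM1 and PRM2, which define the last step, have no row under their symbols and were not analysed here.

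Of the round spermatid list, 5 of 8 genes were in the table, and their summed FPKM was 211 to 255 in the 18M libraries and 77.8, 218 and 136 in replicates 1, 2 and 3 of the 5Y group. The median log2 difference was -1.21, and 2 of 5 genes had an unadjusted p-value under 0.05, both lower in the 5Y group (ACRV1 and SUN5), beside the 10.9% of all genes. With upper-quartile or median-of-ratios scaling 4 of the 5 were lower at that threshold, beside 12.5% and 13.7% of all genes tested. With a pseudocount of 1 it was 3, and with quantile scaling 1. Without replicate 1 of the 5Y group the median was -0.71 with 1 gene past the threshold, beside 8.51% of all genes tested lower. No gene was past it without replicate 1 or 3 of the 18M group or replicate 3 of the 5Y group. In these fits 4.88%, 5.05% and 7.53% of all genes tested were lower. Without replicate 2 of the 5Y group 4 were past it, in a fit in which 18.3% of all genes tested were lower. The acrosomal gene ACRV1 was at 11.6, 41.6 and 12.8 FPKM in the 5Y libraries, and SPACA1, a gene of the acrosomal membrane, at 7.07, 34.2 and 11.7 FPKM. Their replicate 2 was inside the range of the 18M group and their replicates 1 and 3 were below it, as was nearly so for TSSK4. In replicate 3 of the 5Y group the median of the round spermatid list was at -1.48 and that of the elongating spermatid list at -0.78 from the 18M mean on the log2 scale. TSSK4, at -1.50, lay near the former, and TSSK3, at -0.78, near the latter. In replicate 1 this was not so, where TSSK4, at -2.25, lay at the elongating median of -2.24 and the round median was -1.90.

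**Figure D4:**
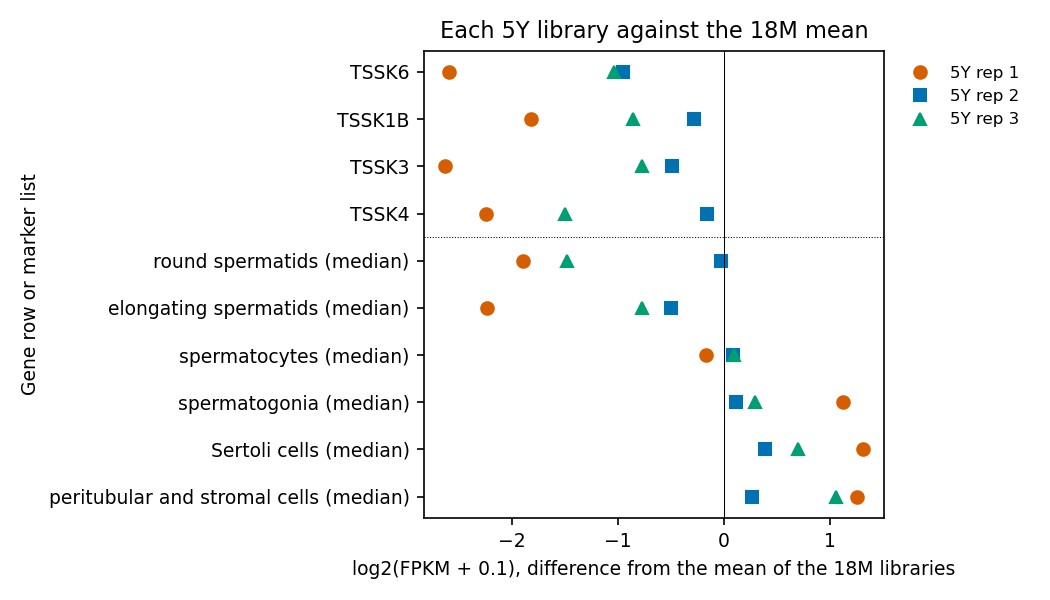
Difference of each 5Y library from the mean of the 18M libraries on the log2(FPKM + 0.1) scale, for the 4 TSSK kinase rows and for the median of 6 marker lists. In replicate 3, TSSK4 lies at -1.50 beside the round spermatid median of -1.48, and the Sertoli and stromal medians are above 0 in all 3 libraries.

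Lists of other testis cells had medians near or above 0, except that of Leydig cells. Spermatocyte genes, 8 of 8 in the table, had a median log2 difference of 0.04, and none had an unadjusted p-value under 0.05. Their summed FPKM was 105 to 109 in the 18M libraries and 82.8 to 107 in the 5Y libraries. Spermatogonia genes had a median of 0.51 (6 of 8 in the table, 1 called, higher). Sertoli cell genes had a median of 0.88, with 4 of 5 called higher in the 5Y group, and summed to 75.8 to 88.8 FPKM against 109 to 252 FPKM. Peritubular and stromal cell genes had a median of 0.97, with 5 of 5 called higher, and summed to 19.9 to 22.9 FPKM against 30.6 to 48.1 FPKM. Without replicate 1 of the 5Y group the medians of these last lists were 0.16, 0.54 and 0.81, with 1, 4 and 4 genes called higher, and without replicate 1 or 3 of the 18M group 2 Sertoli genes were called. Of all 12437 genes tested, 1767 (14.2%) were called higher at the same threshold with all 6 libraries. Without replicate 1 of the 5Y group 1242 were, and without replicate 1 or replicate 3 of the 18M group 1161 and 1034. Called here means an unadjusted p-value under 0.05, and with all 6 libraries none of these genes was past the same threshold after adjustment. Without replicate 2 of the 5Y group 4 Sertoli, 5 stromal and 1 spermatogonia genes were past it after adjustment, as were 19.3% of all genes tested. Leydig cell genes had a median of -0.40, but only 2 of 6 were in the table and they differed. STAR, the cholesterol carrier of steroid synthesis, was called lower at -0.92 with no overlap between the groups. CYP11A1 was at 0.12, was not called, and its groups overlapped. Of all genes tested, 10.9% were called lower, and 13.9% had groups that did not overlap with the 5Y group lower. Leydig cell genes, macrophage genes (5 of 5, 1 called in each direction) and endothelial genes (4 of 4 in the table, 3 tested, none called) were at summed levels of at most 25.4 FPKM in every library. Macrophage genes were at 11.4 to 18.1 FPKM against 24.8 to 25.4 FPKM. Of the erythroid genes only ALAS2 was in the table, at most 0.825 FPKM. The part of cell makeup in the levels of the TSSK rows was not tested.

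To set the kinases beside the spermatid genes within each library, the FPKM of each row was given per 1000 FPKM of the elongating spermatid list. This sum is mostly TNP1, with a mean of 871 FPKM in the 18M group, so the scale is mainly one to that gene. In the round spermatid list CREM and TBPL1 had the highest 18M means, at 94.1 and 53.8 FPKM. TSSK6 was at 115, 124 and 98.5 in the 18M libraries and at 84.5, 81.9 and 88.1 in the 5Y libraries, so its groups did not overlap on this scale either. TSSK1B was at 47.8 to 59.8 in the 18M libraries and 47.9 to 69.6 in the 5Y libraries, TSSK3 at 33.9 to 38.7 and 26.2 to 36.1, and TSSK4 at 20.6 to 24.1 and 12.7 to 28.5, and the groups of these 3 overlapped. In the exact two-sided permutation test TSSK6 gave p = 0.1, the smallest possible, and the others 0.4, 0.5 and 0.8. Per 1000 FPKM of the round spermatid list TSSK1B (286 to 320 against 252 to 280) and TSSK4 (121 to 134 against 74.4 to 119) did not overlap between the groups, each with an exact permutation p = 0.1, and TSSK6 and TSSK3 overlapped (exact permutation p = 0.2 each). Among all 16 ratios tested in this way, the smallest adjusted p-value of these exact permutation tests was 0.4.

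The partners of the kinases were examined next, as a list of 8 genes that were all in the table. TSKS, the substrate of TSSK1 and TSSK2, was at 41.1, 38.1 and 38.1 FPKM in the 18M libraries and at 7.85, 28.6 and 20.1 FPKM in the 5Y libraries. Its log2 difference was -1.23 (SE 0.43, adjusted p = 0.167 from limma), and it was the only gene of the list with an unadjusted p-value under 0.05. Of all genes tested, 10.9% were lower at that threshold. Its difference was -0.70 when replicate 1 of the 5Y group was left out, and without any 1 of the 18M libraries its unadjusted p in limma was between 0.053 and 0.064. TSACC, the cochaperone that activates TSSK6, was at 87.8, 71.0 and 74.1 FPKM in the 18M libraries and at 31.0, 63.4 and 59.1 FPKM in the 5Y libraries, a difference of -0.66 (SE 0.29, adjusted p = 0.204 from limma). Its groups did not overlap. Without replicate 1 of the 5Y group its difference was -0.34.

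Ratios within a library set each kinase against these partners. TSSK6 to TSACC was 1.73, 2.21 and 1.71 in the 18M libraries and 0.766, 1.18 and 1.19 in the 5Y libraries, with no overlap (exact two-sided permutation p = 0.1, the smallest possible, adjusted p = 0.4). The ratio of TSSK6 to TSKS overlapped between the groups, at 3.32 to 4.11 and 2.61 to 3.49. So did TSSK1B to TSKS (1.58 to 2.02 and 1.89 to 2.49), TSSK3 to TSKS (1.09 to 1.28 and 0.939 to 1.34) and TSSK4 to TSKS (0.682 to 0.81 and 0.504 to 0.906). The ratio of TSSK6 to TSSK1B was 2.11, 2.60 and 1.65 in the 18M libraries and 1.21, 1.30 and 1.84 in the 5Y libraries, which overlap (exact permutation p = 0.2), so a difference in response between these 2 members was not shown.

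**Figure D5:**
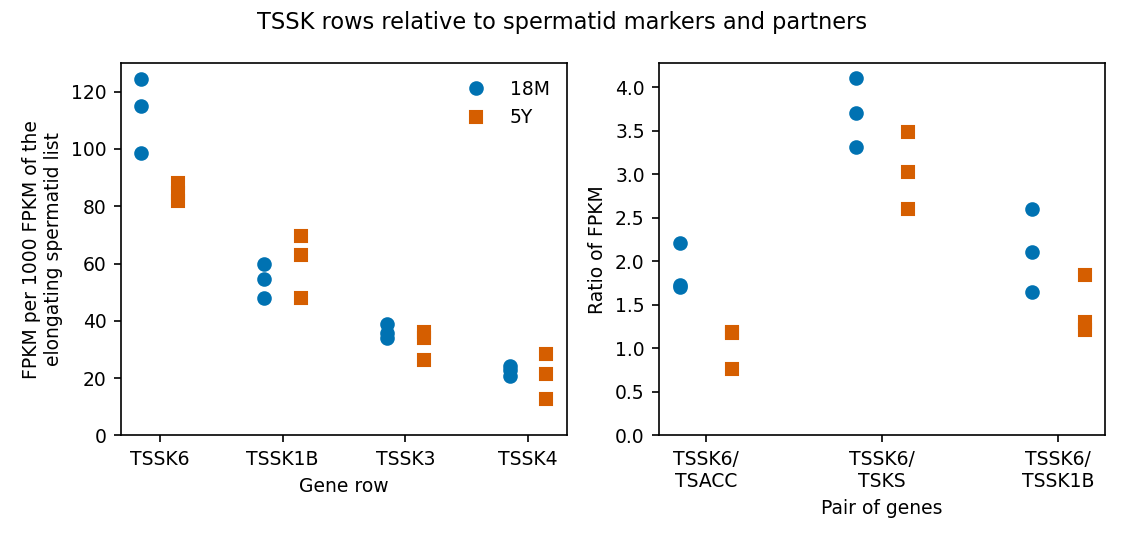
Left, FPKM of each TSSK kinase row per 1000 FPKM of the elongating spermatid list, a sum that is mostly TNP1. Right, ratio of TSSK6 to TSACC, TSKS and TSSK1B. Each point is a library (circles 18M, squares 5Y), and the groups part for TSSK6 on the left and for TSSK6 to TSACC on the right, and overlap elsewhere.

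None of the other 6 partner genes had an unadjusted p-value under 0.05. With upper-quartile or median-of-ratios scaling 3 genes of the list were lower at that threshold, beside 12.5% and 13.7% of all genes tested. ODF2, an outer dense fibre protein of the sperm tail, was at 112, 99.9 and 96.1 FPKM in the 18M libraries and at 32.8, 83.0 and 78.2 FPKM in the 5Y libraries, with no overlap. SPAG16, an axoneme protein, was at 9.80 to 10.1 and 4.54 to 10.1 FPKM, and the chaperones HSP90AA1 (205 to 216 and 207 to 247 FPKM) and HSPA2 (36.7 to 41.7 and 28.0 to 38.8 FPKM) overlapped. CREB1 was at 2.89 to 3.27 FPKM in the 18M libraries and 3.40 to 4.88 FPKM in the 5Y libraries, with the 5Y group higher in each library. PDPK1 overlapped, at 9.51 to 12.7 and 11.7 to 19.8 FPKM. The median log2 difference of the 8 genes was -0.34, and -0.11 without replicate 1 of the 5Y group. In that fit 3 genes were called lower, beside 8.51% of all genes tested. Without replicate 2 of the 5Y group 4 were lower and 2 higher. In this last fit 40.1% of all genes tested were called, with 18.3% lower.

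Related kinases were called in both directions, as were genes at large (10.9% lower and 14.2% higher). Of 16 AMPK-related kinases, 13 were in the table, 3 were called lower and 2 higher in the 5Y group at an unadjusted p-value under 0.05, and the median log2 difference was -0.37. Those lower were SNRK (-0.88), MELK (-0.63) and SIK2 (-0.54), and NUAK1 was higher (1.26). The other gene called higher was PRKAA1, a catalytic subunit of AMP-activated protein kinase, at 33.7 to 45.0 FPKM in the 18M libraries and 45.5 to 101 FPKM in the 5Y libraries. That symbol is on 4 identifiers, and these values are of the most abundant (ENSBGRG00000024490). Another PRKAA1 row (ENSBGRG00000024391) went the other way, with means of 17.0 FPKM in the 18M group and 11.2 FPKM in the 5Y group. Of 11 other kinases known from male germ cells, 10 were in the table, 3 were called lower and 1 higher, with a median of -0.43. The 3 were MAK (-1.08), a kinase of meiotic and haploid germ cells, TEX14 (-1.03), which is needed for germ cell bridges, and ULK4 (-0.45), and the gene called higher was CSNK2A2 (0.51). Without replicate 1 or without replicate 3 of the 18M group no gene of this second list was called, and without replicate 1 of the 5Y group 2 were called lower and none higher. In the first list 6 genes were called lower without replicate 2 of the 5Y group, and 1 without replicate 3 of the 18M group. Of all genes tested, 18.3% and 5.05% were called lower in these fits. CAMK4, a calmodulin-dependent kinase of spermatids, was at 2.22, 13.8 and 4.81 FPKM in the 5Y libraries and at 10.2 to 15.7 FPKM in the 18M libraries, with a log2 difference of -1.33 (SE 0.59, adjusted p = 0.211 from limma).

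Of the 196 rows with the serine/threonine kinase term, 161 were tested, 25 were called lower and 18 higher in the 5Y group at an unadjusted p-value under 0.05, none at an adjusted one, and the median log2 difference was -0.03. Over both directions the share is near the 25.1% of all genes tested, so that total says nothing particular about kinases. By direction more of these rows were lower than higher, while of all genes 10.9% were lower and 14.2% higher. The 4 TSSK kinase rows are among the 25, and whether this lean goes beyond that of all genes was not tested. Median-of-ratios scaling gave 35 lower and 14 higher, beside 13.7% of all genes tested lower. Leaving out 1 library gave 11 to 37 lower and 10 to 27 higher, the most without replicate 2 of the 5Y group. In that fit 34 rows were past an adjusted 0.05, as were 19.3% of all genes tested. In the fit with all 6 libraries, only 2 of the 161 tested rows had a lower log2 difference than TSSK6. Which rows these are is not given here, and not all rows with the term have the symbol of a kinase. Among the rows of this term with a mean of at least 10 FPKM over the 6 libraries, chosen after the values were seen, TSSK6 had the lowest difference, followed by PRKCD (-1.35), TSSK4, TSSK3, PIM1 (-1.24), MAK and TSSK1B. PIM1 was at 29.0 to 31.8 FPKM in the 18M libraries and 9.66 to 15.9 FPKM in the 5Y libraries.

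Genes whose pattern over the 6 libraries was most like that of each kinase row were found by the Pearson correlation of log2(FPKM + 0.1), as a description with no test. For TSSK6 these were FNDC8, GLUL, IQCF6, POP4 and ROBO4, with correlations of 0.997 to 0.999. GLUL, glutamine synthetase, was at 117 to 142 FPKM in the 18M libraries and 29.5 to 70.2 FPKM in the 5Y libraries. For TSSK3 they included CPT1B, GRK4, TNP1 and HMGB4, the last 2 of which are in the elongating spermatid list. For TSSK1B they were C16orf91, PDHA2, PSMA6, ASB17 and NIPAL3, and PDHA2, the testis form of a pyruvate dehydrogenase subunit, was at 54.0 to 64.9 and 19.2 to 50.2 FPKM. For TSSK4 they were VLDLR, FNDC11, SAXO1, DDX20 and CLDND2. FNDC11 was at 92.0 to 115 FPKM in the 18M libraries and at 26.1, 93.4 and 39.9 FPKM in the 5Y libraries, so that its replicate 2 lay inside the 18M range. The second TSSK1B row was most like TNFAIP8, UBL7, SRCIN1, ACACA and ITGB5, with correlations of 0.971 to 0.986, and none of these genes is in the list of another TSSK row.

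In the deposited table of differential m6A peaks between the ages, none of the 5 TSSK rows had a peak, and neither did TSKS or TSACC. Such a peak was found for 5.63% of all rows and for 9.29% of the tested rows, so a count of 0 of 5 is near what this share gives and is no result about the family. The table lists peaks that differed between the ages only, and whether the TSSK transcripts carry m6A that does not differ was not analysed here. Among the kinases of the lists, NUAK1 and STK33 had a differential peak.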

How the data were processed

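Of 12 libraries, the 6 input libraries have values by gene and were grouped by the ages in their titles (3 yaks each). The deposited FPKM values come from the authors, who trimmed with Trimmomatic, removed ribosomal reads with SortMeRNA and mapped to LU_Bosgru_v3.0 with HISAT2 (version 2.0.4 in the submitters' processing notes), retaining unique reads. How FPKM was calculated is not given in the sources used here. Low values were not exact multiples of a common step, so fragments were not recovered. Peak tables made by the authors with MeTDiff and ChIPseeker served only to look up gene identifiers.

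Ages were compared with limma 3.58.1 (lmFit, eBayes with a trend, R 4.3.3) on log2(FPKM + 0.1), which understates changes of low genes. Genes needed a mean of at least 0.5 FPKM, and p-values were adjusted over all 12437 tested by the Benjamini-Hochberg method. The fit was tested on simulated data. Exact permutation tests used scipy 1.17.1 under Python 3.11.15. The limma p-values set the mean difference against the spread between 3 animals a group, moderated over all genes tested. Those of the permutation tests come from regrouping the 6 libraries.

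Every row whose symbol starts with TSSK is named. Other genes are those needed to describe the counts of the lists (partners, AMPK-related kinases, germ cell kinases, cell type markers) and the 5 genes most correlated with each row, of which 1 is not reported here. Of the 3871 symbols on several identifiers, those in the lists were read at the identifier with the highest mean. Members and lists were chosen with earlier results of these data known, and the kinase term and the ratios after the values were seen. Sequences and promoter motifs were not analysed here.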

Additional observations from a re-analysis of the deposited data

How the results depend on the processing

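With all 6 libraries, 10 alternatives were run: pseudocounts of 1 and 0.01, no filter or a minimum mean of 1 FPKM, upper-quartile, median-of-ratios and quantile scaling, limma without a trend or robust, and a replicate block. TSSK6, TSSK1B and TSSK4 kept their direction and an unadjusted p under 0.05 in all 10, as did TSSK3 in all but quantile scaling (-1.16, unadjusted p 0.055 in limma). TSACC passed an unadjusted 0.05 with upper-quartile (-0.68) and median-of-ratios scaling (-0.73). The number of all genes past an adjusted 0.05 was 4, against 2 with a pseudocount of 0.01, 8 with no filter, 2 with a minimum mean of 1 FPKM, 9 without a trend and 1 with the replicate block. Leaving out 1 library, this number was 0 to 2403, and 1662 to 4992 genes were past an unadjusted 0.05 (3123 with all). The TSSK rows past it were 1 to 4, and 0 to 3 after adjustment, the 3 only without 5Y replicate 2. Of the listed genes 13 to 43 were past it (30 with all), beside 13.4% to 40.1% of all genes tested (25.1% with all). The counts by list are given above. The log2 difference was -1.82 to -0.99 in TSSK6, -1.34 to -0.57 in TSSK1B, -1.71 to -0.63 in TSSK3, -1.88 to -0.83 in TSSK4 and 0.01 to 0.20 in the second TSSK1B row. Libraries that share a replicate number share only the number (residual correlations of -0.02, -0.09 and 0.01, with no library of the 18M group closest to its own number), and the replicate block changed no TSSK call and gave 2565 genes past an unadjusted 0.05, with 4 of 5 genes of each spermatid list lower at that threshold (5 elongating and 2 round without it). With the block 9.34% of all genes tested were lower at that threshold, against 10.9% without it. Depth is unknown, and 3 animals a group limit the precision.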
